A study of Mus musculus with 9 samples.

Results

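Keratins that mark the basal and the luminal layer of mammary epithelium were followed in Wnt1-driven mammary tumours and normal mammary glands of mice. The members were 10 keratin genes chosen by name, with Krt5, Krt14, Krt15, Krt17 and Krt6a as basal keratins and Krt7, Krt8, Krt18, Krt19 and Krt23 as simple-epithelial keratins. Of these, 9 had a probe set with a single gene symbol, out of 22180 genes so annotated, and all 9 passed the filter on low values that left 17478 genes. Krt5 had none. The array carries a probe set annotated to both Krt5 and Krt6a, whose signal cannot be given to either gene, so 4 basal and 5 simple-epithelial keratins were compared.

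RNA from frozen tissue of 9 female FVB mice was hybridised to Mouse Gene 2.0 ST arrays, with 1 array per mouse and 3 arrays per group. Metastatic and non-metastatic mammary tumours came from MMTV-Wnt1 transgenic mice (genotype Wnt1+/-), collected when the tumour had reached a set size, at 281 to 300 and 222 to 354 days of age, and normal mammary glands from wild-type littermates of 533 to 556 days. All mice, the controls included, drank sucrose solution with doxycycline. The MMTV promoter drives the transgene mainly in mammary epithelium, and the arrays measured whole pieces of tissue, so the share of epithelial cells and the RNA per cell cannot be told apart in any value below. Age and tumour status cannot be told apart in the comparisons with normal gland either. Values are log2 signals after RMA, a method that corrects background and equalises the distributions of the arrays. Wnt1 itself lay between 11.20 and 12.40 on the log2 scale in the 6 tumours, against 5.45 to 5.71 in the 3 normal glands.

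Keratins are the intermediate filament proteins of epithelial cells. A filament is built from pairs of a type I and a type II keratin, and each kind of epithelium uses its own pairs. In the mammary gland the basal, myoepithelial layer is known for Krt5 with Krt14, also used by basal cells of the skin, and the luminal layer for Krt8 with Krt18 and for Krt19. Krt6a and Krt17 are best known from hair follicles, nails and wounded or fast-growing epidermis.

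Normal gland 2 stood furthest from its group in markers of epidermis and skeletal muscle. Over 22 measured markers of differentiated epidermis, the mean deviation from each gene's average over the 9 arrays was 2.70 in normal gland 2, against -0.77 and -0.93 in normal glands 1 and 3. Krt10, a keratin of differentiating epidermis, had a log2 value of 12.17 in normal gland 2 and between 6.23 and 6.73 on the other 8 arrays, and Krt77 had 12.32 there against 5.11 to 5.45 elsewhere. It was likewise high over 16 skeletal muscle markers, with a mean deviation of 3.24 where normal glands 1 and 3 had -0.66 and -0.37, and low over 21 luminal and pan-epithelial markers, with -1.30 where they had -0.08 and -0.10. Tumours differed too, by less. Non-metastatic tumour 2 had 1.08 over the epidermal markers, where non-metastatic tumours 1 and 3 had -0.40 and -0.70. Non-metastatic tumour 3 had 1.08 over the muscle markers, where non-metastatic tumours 1 and 2 had 0.34 and -1.08. The part of skin and muscle tissue in the results was not tested. The keratin differences and list counts over both tumour groups are given with and without normal gland 2.

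**Figure D1:**
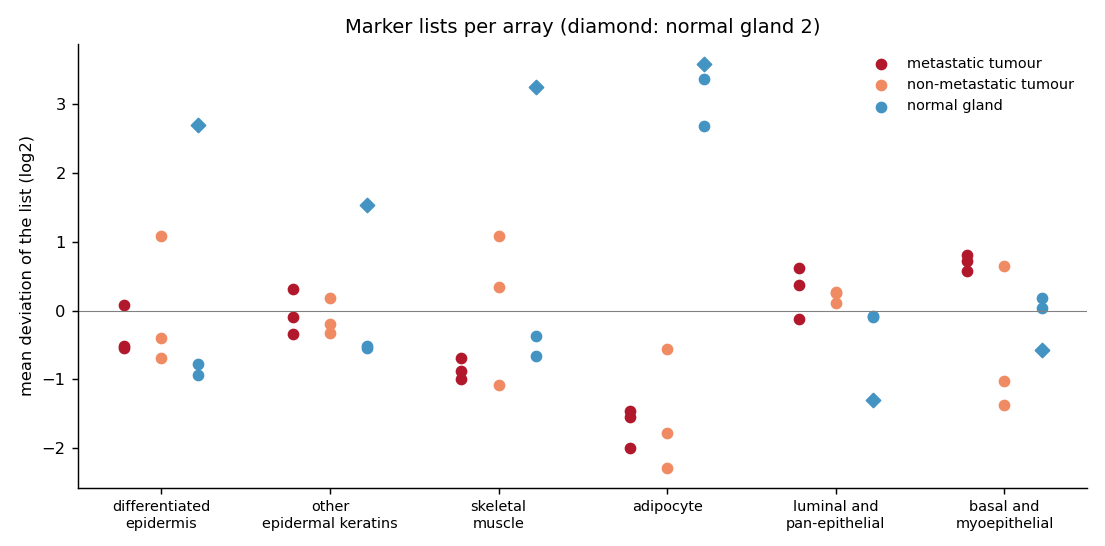
Mean deviation (log2) of 6 marker lists from each gene's average over the 9 arrays, with 1 point per array; groups run from metastatic tumours through non-metastatic tumours to normal glands within each list, and the diamond is normal gland 2. Normal gland 2 is the highest point for the epidermal lists (2.70 for differentiated epidermis) and for muscle (3.24) and the lowest for luminal markers (-1.30).

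Among the simple-epithelial keratins, Krt7, Krt8, Krt18 and Krt23 were higher in every tumour than in every normal gland, while Krt19 was not. In limma's fit over all genes, the mean of both tumour groups minus normal gland passed for Krt7, Krt18 and Krt23, at a Benjamini-Hochberg adjusted p under 0.05. Of the keratins, 3 of 9 were called higher and 0 lower, against 13.6% higher and 9.13% lower over the 17478 genes tested. All tumours lay above all normal glands for 4 of 9, against 15.7% of all genes. All 4 were simple-epithelial.

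**Figure D2:**
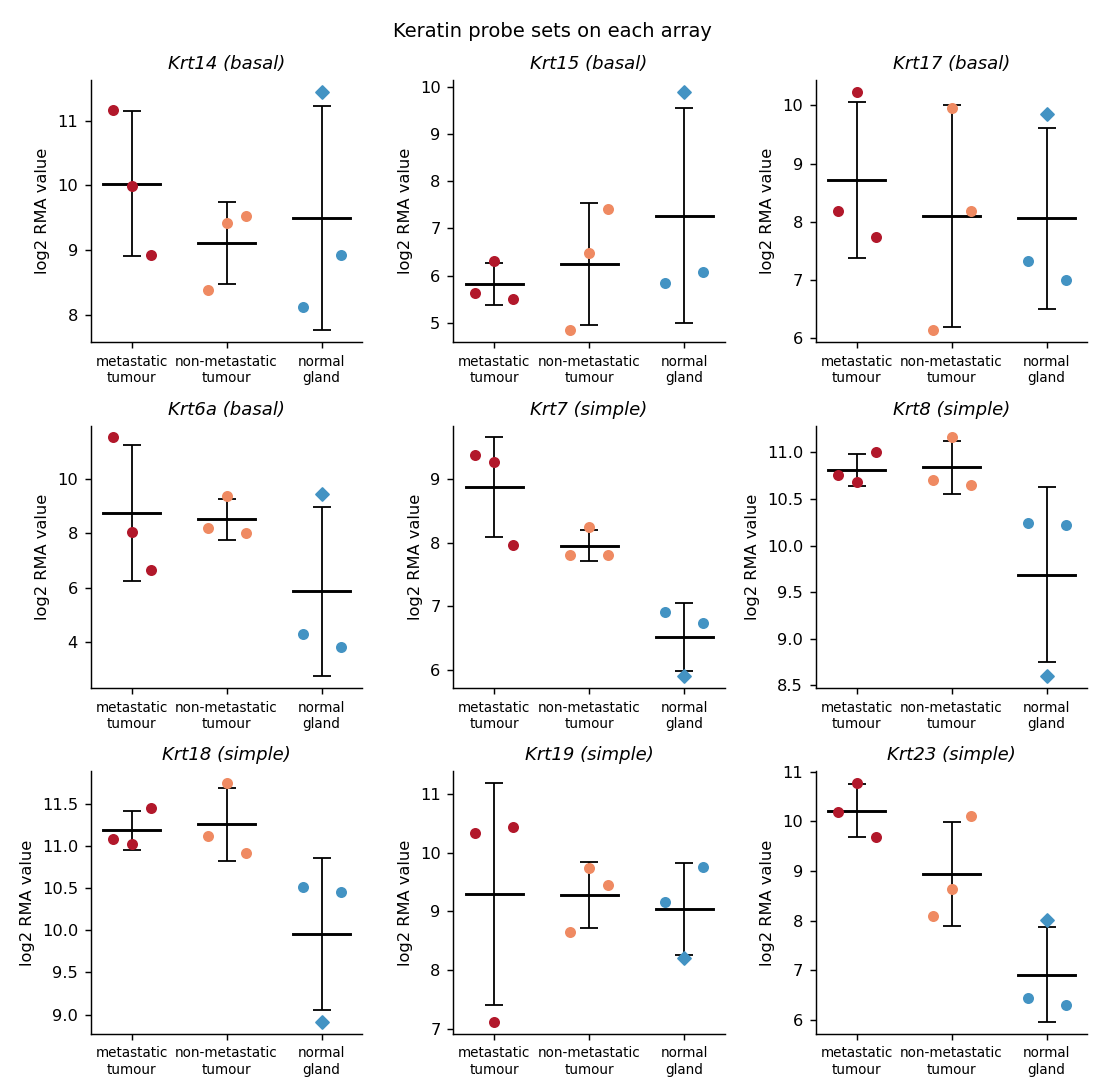
Log2 RMA values of the 9 measured keratins on each array, by group, with the group mean (bar) and SD (n = 3 each); the diamond is normal gland 2. Krt7, Krt8, Krt18 and Krt23 had all 6 tumours above all 3 normal glands, and normal gland 2 was the highest normal gland for every basal keratin.

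Krt8, the type II keratin of simple epithelia, had log2 values of 10.75, 10.68 and 11.00 in metastatic tumours 1 to 3, 10.70, 11.16 and 10.65 in non-metastatic tumours 1 to 3, against 10.24, 8.60 and 10.22 in normal glands 1 to 3. Krt18, its type I partner, had 11.08, 11.03 and 11.45 in metastatic tumours, 11.12, 11.74 and 10.92 in non-metastatic tumours, against 10.51, 8.91 and 10.45 in normal glands. For both genes the tumours lay close together and above the normal glands, and normal gland 2 was the lowest array by over 1 log2 unit. Krt18 rose by 1.27 on the log2 scale over both tumour groups (SE 0.37, adjusted p = 0.041), a 2.40-fold change. Krt8 differed by 1.14 (SE 0.36, adjusted p = 0.052), or 2.20-fold, and did not pass.

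Without normal gland 2 these differences were 0.74 for Krt18 (adjusted p = 0.079) and 0.60 for Krt8 (adjusted p = 0.059), with all tumours still above both remaining normal glands. Another Krt18 probe set had 9.05, 8.86 and 9.33 in metastatic tumours, 9.19, 9.87 and 8.80 in non-metastatic tumours, against 8.13, 6.15 and 7.87 in normal glands, again without overlap. Its difference was 1.80 (SE 0.44, adjusted p = 0.022) with all arrays and 1.19 (adjusted p = 0.038) without normal gland 2. For the first probe set the adjusted p ran from 0.020 to 0.082 over 19 alternatives, and the call was lost without any 1 of 7 arrays. It was kept when normal gland 3 or non-metastatic tumour 3 was the array left out.

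Krt8 and Krt18 had nearly the same profile. After each gene was centred on its own mean, their values differed by a root mean square of 0.10 log2 units over the 9 arrays, the smallest figure among the 36 pairs of the 9 keratins. The next smallest was 0.72, for Krt7 with Krt8 and also for Krt7 with Krt18. Pairs of a basal with a simple-epithelial keratin lay between 1.42 and 2.56. Pairs within the basal set lay between 1.06 and 2.40 and those within the simple-epithelial set between 0.10 and 1.91, so these ranges overlap. The measure is not scaled and grows with a gene's spread, whose SD over the 9 arrays ran from 0.76 for Krt8 to 2.46 for Krt6a. These figures describe 9 arrays of 3 groups. In the RefSeq gene order Krt18 follows Krt8 directly on chromosome 15, although the other type I keratins listed here lie on chromosome 11 with the type I cluster. Krt5, Krt6a and Krt7 lie on chromosome 15 as well.

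Promoter windows were found in RefSeq (GRCm38.p6) for 6 of the 10 members, and those of the 4 genes with all tumours above all normal glands are shown, for what letters they share. Each is the 250 bases before the gene's start, 5′ to 3′, with letters in capitals where a searched motif matched on either strand. The windows are chr15:102004343-102004592 (minus strand) for Krt8, chr15:102027966-102028215 (plus strand) for Krt18, chr15:101412153-101412402 (plus strand) for Krt7 and chr11:99493121-99493370 (minus strand) for Krt23.
Krt8: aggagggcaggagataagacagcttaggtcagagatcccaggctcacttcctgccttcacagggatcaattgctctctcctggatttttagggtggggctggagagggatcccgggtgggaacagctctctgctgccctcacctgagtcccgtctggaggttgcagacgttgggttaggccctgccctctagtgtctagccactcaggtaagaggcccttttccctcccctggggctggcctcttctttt
Krt18: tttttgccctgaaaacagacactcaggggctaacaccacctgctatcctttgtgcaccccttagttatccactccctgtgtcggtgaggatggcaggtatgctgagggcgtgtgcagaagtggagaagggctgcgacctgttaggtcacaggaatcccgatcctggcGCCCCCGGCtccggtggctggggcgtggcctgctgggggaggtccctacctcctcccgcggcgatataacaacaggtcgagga
Krt7: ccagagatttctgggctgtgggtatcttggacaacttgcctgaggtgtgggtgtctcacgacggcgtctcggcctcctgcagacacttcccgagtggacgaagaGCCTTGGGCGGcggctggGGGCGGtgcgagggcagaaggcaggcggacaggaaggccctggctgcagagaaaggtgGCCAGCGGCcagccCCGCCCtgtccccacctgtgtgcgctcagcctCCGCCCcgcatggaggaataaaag
Krt23: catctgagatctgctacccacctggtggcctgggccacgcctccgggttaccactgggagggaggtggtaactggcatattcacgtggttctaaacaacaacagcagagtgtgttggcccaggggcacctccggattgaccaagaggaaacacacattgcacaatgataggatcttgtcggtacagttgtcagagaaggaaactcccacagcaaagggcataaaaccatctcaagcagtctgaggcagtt
The 5 motifs searched were the TATA box (TATAAA), the GC box (GGGCGG), an AP-2 core (GCCNNNGGC), an AP-1 core (TGANTCA) and a TCF/LEF core (CTTTGAT). Krt18 had 1 AP-2 match, from 83 to 75 bases before the start. Krt7 had 4 GC boxes and 2 AP-2 matches, of which the AP-2 match from 146 to 138 overlaps the GC box from 141 to 136. Neither the Krt8 nor the Krt23 window held any of these letters, and the 4 windows had no TATAAA, AP-1 or TCF/LEF match. Of all 32851 windows of the same length, 32.7% held the GC box, 13.7% the AP-2 core, 12.4% TATAAA, 6.75% the AP-1 core and 3.21% the TCF/LEF core.

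Krt7, a type II keratin of ductal and glandular epithelia, had log2 values of 9.38, 9.26 and 7.96 in metastatic tumours, 7.81, 8.24 and 7.81 in non-metastatic tumours, against 6.91, 5.90 and 6.74 in normal glands. Metastatic tumours 1 and 2 were the highest arrays, and metastatic tumour 3 lay within the range of the non-metastatic tumours. Over both tumour groups Krt7 rose by 1.90 (SE 0.35, adjusted p = 0.0091), a 3.73-fold change. This call held in all 19 alternatives, with a change between 1.49 and 2.12, and without normal gland 2 the change was 1.59 (adjusted p = 0.038).

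Krt23, a type I keratin of epithelial cells, had the largest difference among the called keratins. Its log2 values were 10.18, 10.77 and 9.70 in metastatic tumours, 8.09, 8.64 and 10.11 in non-metastatic tumours, against 6.44, 8.01 and 6.30 in normal glands. Non-metastatic tumour 3 lay among the metastatic tumours, and non-metastatic tumour 1 was only just above normal gland 2. The change over both tumour groups was 2.66 (SE 0.53, adjusted p = 0.012), or 6.34-fold. It was 3.21 (adjusted p = 0.015) without normal gland 2, where this gene was higher than in the other normal glands, and 2.42 (adjusted p = 0.054) without normal gland 1, which lost the call.

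Krt19, a small type I keratin of luminal cells, was the simple-epithelial keratin whose groups overlapped. It had log2 values of 10.33, 7.12 and 10.44 in metastatic tumours, 8.64, 9.74 and 9.45 in non-metastatic tumours, against 9.15, 8.20 and 9.76 in normal glands. Metastatic tumour 2 was the lowest of all 9 arrays for this gene, while it was the highest for Krt17 and Krt23. The difference over both tumour groups was 0.25 (SE 0.75, adjusted p = 0.84), with a 95% interval from -1.47 to 1.96 that also covers the changes of Krt8, Krt18 and Krt7. It was 0.79 without metastatic tumour 2.

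Each tumour group was also set against normal gland on its own. The same 4 keratins were above all normal glands in each, beside 23.2% of all genes for metastatic and 21.9% for non-metastatic tumours. In metastatic tumours against normal gland, where 7.35% of all genes were called higher, 2 of 9 keratins were, Krt7 by 2.36 (SE 0.41, adjusted p = 0.013) and Krt23 by 3.30 (SE 0.62, adjusted p = 0.017). In non-metastatic tumours against normal gland, where 11.2% of all genes were called higher, 1 of 9 was, Krt7 by 1.44 (SE 0.41, adjusted p = 0.043), beside Krt23 at 2.03 (SE 0.62, adjusted p = 0.054). Both comparisons use the same normal glands. Without normal gland 2 Krt7 missed the threshold in non-metastatic tumours (1.13, adjusted p = 0.13) and Krt23 passed there (2.58, adjusted p = 0.040), beside 4.63% of all genes called higher. The Krt7 call in non-metastatic tumours was lost without any 1 of 8 arrays, with an adjusted p from 0.051 to 0.13, and kept only without metastatic tumour 3.

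In metastatic tumours both calls held without normal gland 2 (Krt7 2.05, adjusted p = 0.039, and Krt23 3.85, adjusted p = 0.020), beside 2.04% of all genes called higher. Without metastatic tumour 1 neither passed (Krt7 2.10, adjusted p = 0.0503, and Krt23 3.32, adjusted p = 0.058). Krt23 also missed the threshold without normal gland 1 (adjusted p = 0.059) and without metastatic tumour 2 (adjusted p = 0.051).

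**Figure D3:**
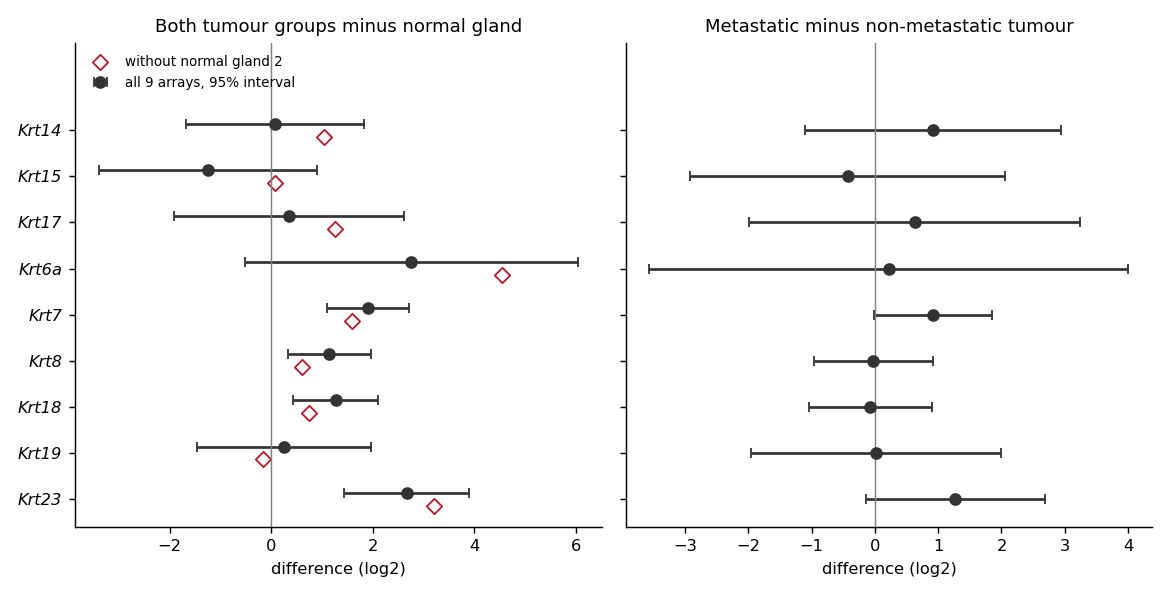
Differences (log2) of the 9 keratins for both tumour groups minus normal gland (left) and for metastatic minus non-metastatic tumours (right), with 95% intervals from limma's fit; open diamonds on the left leave out normal gland 2, and that of Krt6a rests on 2 normal glands close to background. On the left the intervals of Krt7, Krt8, Krt18 and Krt23 lie above 0, and all 9 on the right include 0.

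None of the 4 basal keratins passed in any of the 4 comparisons, at an adjusted p under 0.05 or at an unadjusted p under 0.05 in limma. Over all genes the unadjusted p was under 0.05 for 5.07% between the tumour groups, 30.5% for metastatic and 34.4% for non-metastatic tumours against normal gland, and 37.1% for both tumour groups. The basal keratins spread widely among normal glands, and normal gland 2, the array highest in epidermal markers, was the highest normal gland for each of them. Among non-metastatic tumours, tumour 2, the highest of them in those markers, was highest for Krt17 and Krt6a, and tumour 3 for Krt14 and Krt15. Krt14, the type I keratin of basal cells, had log2 values of 11.17, 9.99 and 8.92 in metastatic tumours, 8.38, 9.41 and 9.53 in non-metastatic tumours, against 8.13, 11.45 and 8.92 in normal glands. The difference over both tumour groups was 0.07 (SE 0.76, adjusted p = 0.96), and 1.05 (adjusted p = 0.29) without normal gland 2.

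Krt17, a type I keratin that pairs with type II keratins in hair follicles and activated epidermis, had 8.18, 10.24 and 7.74 in metastatic tumours, 6.14, 9.95 and 8.19 in non-metastatic tumours, against 7.32, 9.85 and 6.99 in normal glands. Its highest values were thus spread over all 3 groups, 1 array in each, and the groups overlapped. The difference over both tumour groups was 0.35 (SE 0.98, adjusted p = 0.83), and 1.25 (adjusted p = 0.47) without normal gland 2.

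Krt15, a type I keratin of basal cells and of hair follicle stem cells, had 5.63, 6.32 and 5.49 in metastatic tumours, 4.84, 6.48 and 7.41 in non-metastatic tumours, against 5.85, 9.91 and 6.07 in normal glands. It was above the array's median signal on 5 of 9 arrays, and its one high value was that of normal gland 2. The difference over both tumour groups was -1.25 (SE 0.94, adjusted p = 0.38), and 0.070 (adjusted p = 0.96) without that array.

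Krt6a, a type II keratin induced in wounded epidermis, varied most of the 9 keratins, over a range of 7.67 log2 units. It had 11.52, 8.06 and 6.65 in metastatic tumours, 8.19, 9.38 and 8.00 in non-metastatic tumours, against 4.33, 9.45 and 3.85 in normal glands. Normal glands 1 and 3 lay below their array's 30th percentile of 4.92 and 4.95, so these values are close to background, whereas normal gland 2 lay above 5 of the 6 tumours. The difference over both tumour groups was 2.76 (SE 1.43, adjusted p = 0.20). Without normal gland 2 the fit gave 4.55 (SE 1.14, adjusted p = 0.048). Since both remaining normal glands were then below the filter level and Krt6a passed the filter through the tumours alone, this is not counted as a call and no fold is given. Among the other keratins Krt7 and Krt23 were called higher without normal gland 2, beside 5.83% of all genes.

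Krt6a has the closely related neighbour Krt6b, and its signal may include Krt6b transcripts. Krt6b had log2 values of 8.12, 6.30 and 6.15 in metastatic tumours, 5.62, 7.62 and 5.86 in non-metastatic tumours, against 4.99, 7.01 and 5.75 in normal glands (named after its values were seen). Both genes were highest in metastatic tumour 1 and next highest in either non-metastatic tumour 2 or normal gland 2. The probe set annotated to both Krt5 and Krt6a had 10.73, 11.21 and 10.55 in metastatic tumours, 8.55, 10.22 and 11.37 in non-metastatic tumours, against 9.62, 11.99 and 9.30 in normal glands. Its order of arrays differed from that of the Krt6a probe set, with normal gland 2 highest and non-metastatic tumour 1 lowest. Over both tumour groups it differed by 0.14 (SE 0.73, adjusted p = 0.91), and by 0.98 (adjusted p = 0.36) without normal gland 2.

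The basal keratins were then set against the simple-epithelial ones on each array. For every array the mean deviation of the 5 simple-epithelial keratins from their own averages was subtracted from that of the 4 basal keratins. The result was 0.17, 0.27 and -1.53 in metastatic tumours 1 to 3, -1.0, 0.29 and -0.12 in non-metastatic tumours 1 to 3, against -0.86, 3.63 and -0.85 in normal glands 1 to 3. Normal gland 2 was alone at the end of high basal keratins. The other 8 arrays lay between -1.53 and 0.29, and the tumours spanned that whole range. Basal markers other than keratins were not high in normal gland 2. Over 15 basal and myoepithelial markers its mean deviation was -0.58, against 0.18 and 0.03 in normal glands 1 and 3.

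Metastatic tumours had a mean score of -0.36 ± 1.01, non-metastatic tumours one of -0.28 ± 0.66 and normal glands one of 0.64 ± 2.59 (SD, n = 3 arrays a group). The difference over both tumour groups was -0.96 with all arrays and 0.53 without normal gland 2. The turn in direction also depended on Krt6a, close to background in normal glands 1 and 3. With Krt14, Krt15 and Krt17 alone as the basal part, a choice made after seeing the data, the difference was -1.72 with all arrays and -0.41 without normal gland 2. With the probe set of Krt5 and Krt6a added to the 4 basal keratins it was -1.03 and 0.38. No test was made of the score. The simple-epithelial part alone was 0.96, 0.39 and 0.73 in metastatic tumours, -0.11, 0.52 and 0.40 in non-metastatic tumours, against -0.73, -1.46 and -0.69 in normal glands, with all tumours above all normal glands. The basal part alone was 1.13, 0.66 and -0.80 in metastatic tumours, -1.11, 0.81 and 0.28 in non-metastatic tumours, against -1.59, 2.17 and -1.54 in normal glands. All 6 tumours lay above normal glands 1 and 3 and below normal gland 2, but the first of these did not hold without Krt6a. Over Krt14, Krt15 and Krt17 non-metastatic tumour 1 had -1.64, below the -0.99 and -0.76 of normal glands 1 and 3.

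**Figure D4:**
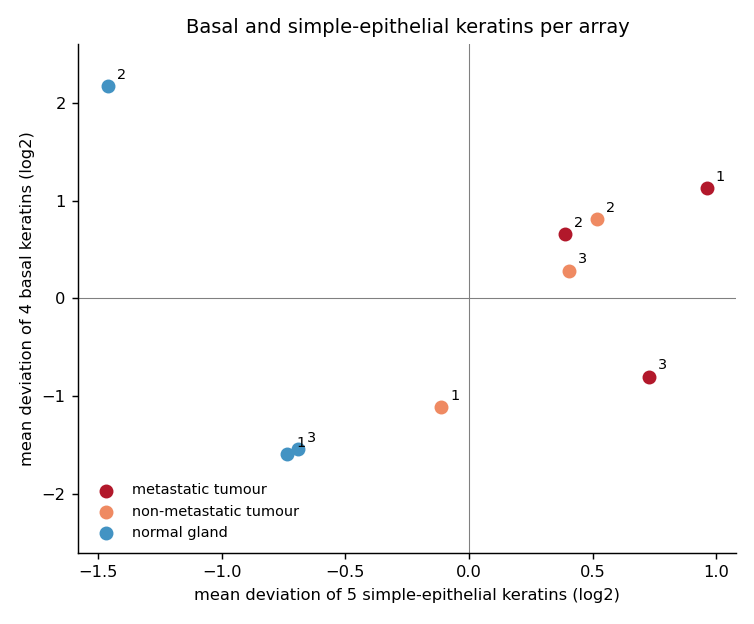
Mean deviation (log2) of the 4 basal keratins (vertical) against that of the 5 simple-epithelial keratins (horizontal), with 1 point per array, numbered by replicate. The tumours lie to the right of all normal glands, and normal gland 2 is alone at the upper left, at 2.17 and -1.46.

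The series title asks what sets metastatic tumours apart from non-metastatic ones. No keratin passed in that comparison with limma, 0 of 9 at an adjusted and 0 of 9 at an unadjusted p under 0.05, and none had groups without overlap. Of all 17478 genes, 0.00572% passed, which is 1 gene, and 4.41% lay higher and 5.84% lower in metastatic tumours without overlap. The median difference of the 9 keratins was 0.22, against -0.02 over all genes.

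Krt23 had the largest difference, 1.27 higher in metastatic tumours (SE 0.62, 95% interval -0.15 to 2.69, adjusted p = 0.88), followed by Krt14 at 0.92 (SE 0.88, 95% interval -1.10 to 2.94) and Krt7 at 0.92 (SE 0.41, 95% interval -0.02 to 1.85). Krt8 and Krt18 differed by -0.02 (95% interval -0.97 to 0.92) and -0.07 (95% interval -1.04 to 0.90). For this pair the intervals leave room for a difference of up to about 1 log2 unit in either direction. The intervals of Krt6a (-3.56 to 4.01) and Krt17 (-1.99 to 3.24) were far wider, and single metastatic tumours differed by up to 4.87 log2 units for Krt6a.

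The keratins were read beside other epithelial genes over both tumour groups. Of 21 luminal and pan-epithelial markers other than keratins, 6 rose, 0 fell and 15 did not pass, beside 13.6% of all genes called higher, and their median was 1.04 against 0.04 over all genes. Among these 6 were Prom1, a membrane protein of luminal cells, at 2.52 (SE 0.33), Elf3, an epithelial transcription factor, at 1.76 (SE 0.30), Kit, a receptor of luminal progenitors, at 1.63 (SE 0.30), and Cldn4, a tight junction protein, at 1.23 (SE 0.20). In limma 11 of the 21 had an unadjusted p under 0.05, 9 of them higher, beside 37.1% of all genes. The list was not uniform, and 2 members with lower tumour means are given, named after their values were seen. Esr1 had group means of 7.44 in metastatic and 7.56 in non-metastatic tumours, against 9.25 in normal glands. Cited1 had 7.56 and 7.39, against 8.04. The median of the 5 simple-epithelial keratins was 1.27. Without normal gland 2, 7 luminal markers passed as higher, beside 5.83% of all genes, and the luminal median was 0.45 and that of the simple-epithelial keratins 0.74.

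All 12 adipocyte markers fell, with a median of -5.06, beside 9.13% of all genes called lower. Without normal gland 2, 11 fell, beside 5.03% of all genes. Their mean deviation lay between -2.28 and -0.57 in the tumours, against 2.67 to 3.58 in the normal glands. The part of this fall in the keratin differences was not tested. Of 15 basal and myoepithelial markers other than keratins, 1 rose and 14 did not pass, beside 13.6% of all genes called higher. This was Lgr6, a stem cell receptor, at 1.87 (SE 0.50). With normal gland 2 left out, Lgr6 did not pass (1.35, adjusted p = 0.11). The list's median of 0.04 joins 0.88 for metastatic and -0.70 for non-metastatic tumours against normal gland. Between the tumour groups 0 passed, and the median was 1.33, against -0.02 over all genes. In limma 6 of 15 had an unadjusted p under 0.05 there (5 without normal gland 2), beside 5.07% of all genes. All 6 were higher in metastatic tumours. Over the 15 markers the mean deviation was 0.58, 0.72 and 0.80 in metastatic tumours 1 to 3. It was -1.37, -1.02 and 0.65 in non-metastatic tumours 1 to 3, the last within the metastatic range.

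Among 17 proteins that link keratin filaments to desmosomes and hemidesmosomes, 3 rose, 1 fell and 13 did not pass, shares near the 13.6% higher and 9.13% lower over all genes. The desmosomal cadherins Dsc2 and Dsg2 rose by 2.55 (SE 0.41) and 1.26 (SE 0.30), and Itgb4, the hemidesmosomal integrin subunit, by 1.29 (SE 0.34). Dst, which encodes the cytoskeletal linker dystonin, fell by 1.31 (SE 0.20). The list's median was 0.48, and without normal gland 2 it was 1.12, with 6 higher and 1 lower, beside 5.83% higher and 5.03% lower over all genes. Dsg2 then differed by 0.80 (adjusted p = 0.015).

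Of 17 transcription factors known to act on keratin genes or epithelial differentiation, 7 rose, 1 fell and 9 did not pass, with a median of 0.86, beside 13.6% higher and 9.13% lower over all genes. Sox10, a factor of stem-like mammary cells, rose by 1.87 (SE 0.52), Elf3 by 1.76, and Klf5, a factor of proliferating epithelium, by 1.58 (SE 0.36). Cebpa, a factor of adipocytes and of epidermal differentiation, fell by 1.96 (SE 0.25). Without normal gland 2, 5 passed as higher and 1 as lower, beside 5.83% higher and 5.03% lower over all genes. The difference of Sox10 was then 1.03 (adjusted p = 0.012).

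Other keratins and intermediate filament genes were counted in the same way. Of 17 other epidermal and stratified-epithelial keratins, 0 passed over both tumour groups, beside 13.6% of all genes called higher and 9.13% lower. Without normal gland 2 the count was also 0, beside 5.83% higher and 5.03% lower. In limma, 0 of these keratins had an unadjusted p under 0.05 with all arrays, beside 37.1% of all genes, and 3 without normal gland 2. Of 19 hair keratins tested, 3 fell and 16 did not pass, with Krt25 at -0.52 (SE 0.16), Krt33b at -0.41 (SE 0.09) and Krt82 at -0.29 (SE 0.09), beside 9.13% of all genes called lower. With normal gland 2 left out only Krt25 passed (-0.67, adjusted p = 0.039), and Krt33b and Krt82 had an adjusted p of 0.062 and 0.070. Krt25 had 4.75, 4.54 and 4.58 in metastatic tumours 1 to 3, below the 30th percentiles of 4.83, 4.88 and 4.92 of those arrays. These values are close to background, so the size of the Krt25 fall is uncertain with and without normal gland 2. Among 11 other intermediate filament genes, Lmnb1, a nuclear lamin, rose by 1.44 (SE 0.30), Synm, the muscle filament protein synemin, fell by 0.86 (SE 0.14) and 9 did not pass. These shares are near the 13.6% higher and 9.13% lower over all genes. Without normal gland 2, 1 higher and 1 lower also passed, beside 5.83% higher and 5.03% lower over all genes. Of 16 markers of differentiated epidermis, 0 passed over both tumour groups, and 0 of 16 skeletal muscle markers did, beside the same 13.6% and 9.13%. In each list 1 had an unadjusted p under 0.05 in limma, beside 37.1% of all genes. Without normal gland 2, 0 passed in either list, beside 5.83% higher and 5.03% lower over all genes. An unadjusted p under 0.05 in limma was then found for 4 epidermal and 0 muscle markers. The share of all genes at an unadjusted p was counted only with all arrays.

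Genes outside the keratin family with the most similar profiles were found by the root mean square difference of centred log2 values over the 9 arrays. Nearest to Krt8 was Tceal9 at 0.15 and nearest to Krt18 was Miga1 at 0.20, against medians over all genes of 0.73 and 0.78. Miga1 and Id2 followed for Krt8, and Naaladl2 and the desmosomal cadherin Dsg2 for Krt18. Normal gland 2 was the lowest array for each of these genes, as for Krt8 and Krt18. For Krt7 the nearest were the transcription factor Foxc1 (0.34), Gabrp, a GABA receptor subunit (0.34), and the desmosomal cadherin Dsc2 (0.39), against a median of 1.08. Each of them was also lowest in normal gland 2, as Krt7 was. For Krt23 the nearest were St8sia6 (0.46), Sostdc1, a secreted Wnt and BMP antagonist (0.51), and Mfsd2a (0.58), against 1.54.

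The basal keratins had other neighbours. Nearest to Krt6a was the desmosomal cadherin Dsg3 (0.54), followed by the epidermal protease gene Asprv1 (0.78) and the cornified envelope gene Sprr1a (1.01), against a median of 2.32. Nearest to Krt17 was Dsp, which encodes desmoplakin, the desmosomal anchor of keratin filaments (0.69), followed by Cd109 (0.80) and Trim29 (0.83), against 1.39. For Krt14 the nearest were Efna3 (0.30), Clic3 (0.52) and Paqr5 (0.58), against 1.13, and all were highest in normal gland 2, as Krt14 was. For Krt15 the muscle genes Klhl41 (0.52), Xirp1 (0.53) and Abra (0.54) were nearest, against 1.43, and normal gland 2 was the highest array for each of them as for Krt15. For Krt19 the nearest were Cfap47 (0.50), Eml5 (0.51) and Adamts3 (0.53), against 1.03.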

How the data were processed

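RNA was measured on Mouse Gene 2.0 ST arrays. The deposited table holds log2 values of 41345 probe sets on 9 arrays, made with RMA per the submitters' processing notes. The RMA version, probe set level and genome build are not given in the sources used here, and the number of arrays limits the precision. A platform annotation gave 23521 probe sets a single gene symbol and 1814 several. The highest-mean probe set stood for each gene. Genes were tested where 3 or more arrays gave a value above that array's 30th percentile. Planned scores assumed 5 basal keratins, and 4 were measured.

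In limma 3.58.1 (R 4.3.3) a model of 3 group means was fitted over the 9 arrays (6 residual degrees of freedom) with eBayes, two-sided, and p was adjusted by Benjamini-Hochberg over all 17478 genes, with a threshold of 0.05. SE is limma's moderated SE. The titles call the replicates biological, with numbers that were not read as pairs. Members and lists were chosen with earlier results of these data known. From each other list up to 4 genes past the threshold with the largest change were named, with the 3 nearest genes of each keratin whose SD was over 0.5. Alternatives were no filter, a 50th percentile filter, mean of probe sets, quantile normalisation, median centring, eBayes trend and robust options, array weights, only the groups compared, a replicate block, age in tumours, a threshold of 0.1 and each array left out. Counts over lists without normal gland 2, the second Krt18 probe set and the scores without Krt6a or with the probe set of Krt5 and Krt6a were added after seeing the data. The fits were tested on simulated data.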

Additional observations from a re-analysis of the deposited data

How the results depend on the processing

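The count of keratins past the threshold was 1 for non-metastatic tumours, 2 for metastatic tumours and 3 for both tumour groups, each against normal gland. Over all genes it was 3288, 2332 and 3980 of 17478. For non-metastatic tumours the keratin count was 0 without a filter and 2 with the 50th percentile filter or the mean of probe sets. It was 3 with median centring and 4 at an adjusted p under 0.1. Array weights gave 4 for metastatic tumours and 5 for both groups. Calls over all genes rose as well with array weights, from 2332 to 6498 and from 3980 to 7603 of 17478. Over all settings the genes called ran from 1345 (without normal gland 1) to 5360 (array weights) for non-metastatic tumours. For metastatic tumours they ran from 627 (without metastatic tumour 1) to 6498 (array weights). For both groups they ran from 1898 to 7603, and between the tumour groups from 0 to 40. With each array left out the keratin counts ran from 0 to 1, from 0 to 2 and from 1 to 4, and that between the tumour groups stayed at 0. With the replicate number as a block the keratin counts were 0, 2 and 2. The calls over all genes moved with the setting too and are not given for each one. The shifts in keratin counts are therefore not read as results about keratins. Same-numbered arrays correlated between -0.28 and 0.17 in their deviations from group means, and 3 of 9 arrays correlated best with their own number, so the numbers were not read as pairs.

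In each comparison the keratins that changed sign were ones that had not passed in that comparison. Over both tumour groups, leaving out each array in turn gave Krt14 from -0.62 to 1.05, Krt15 from -1.96 to 0.070, Krt17 from -0.18 to 1.25 and Krt19 from -0.17 to 0.79. For metastatic tumours Krt14 ran from -0.16 to 1.51, Krt17 from -0.097 to 1.56 and Krt19 from -0.32 to 1.35. For non-metastatic tumours Krt14 ran from -1.08 to 0.59, Krt15 from -1.75 to 0.28, Krt17 from -0.89 to 1.01 and Krt19 from -0.18 to 0.60. Between the tumour groups Krt15 ran from -1.13 to 0.16, Krt17 from -0.35 to 1.56, Krt6a from -1.16 to 1.27, Krt8 from -0.12 to 0.14, Krt18 from -0.24 to 0.17 and Krt19 from -0.55 to 1.11. Quantile normalisation turned Krt14 to -0.031 over both groups and median centring turned Krt19 to -0.012 between the tumour groups. Array weights turned Krt6a to -0.10 between the tumour groups, and Krt14 to 0.74 and Krt15 to 0.098 for non-metastatic tumours. The cause was not tested. Of the 720 values for single keratins, 631 kept their direction and their side of the threshold.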

Other observations

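Of the keratins outside the 10 members, 3 with a wide spread between single tumours are given here, chosen after their values were seen. Krt79, a keratin of sebaceous ducts, had log2 values of 12.02, 9.99 and 8.42 in metastatic tumours, 8.67, 11.61 and 10.32 in non-metastatic tumours, against 6.72, 10.92 and 6.33 in normal glands. All tumours lay above normal glands 1 and 3, and normal gland 2 was above 4 of the 6 tumours. Krt80 had 9.38, 8.27 and 6.32 in metastatic tumours, 6.98, 7.52 and 7.02 in non-metastatic tumours, against 6.68, 9.66 and 6.36 in normal glands. Krt16, a usual type I partner of Krt6a in epidermis, had 7.84 in non-metastatic tumour 2 and 7.53 in normal gland 2, and between 4.01 and 5.57 on the other 7 arrays, including metastatic tumour 1, where Krt6a was highest. Krt1, Krt10 and Krt77, keratins of differentiated epidermis, did not follow Krt79 in the tumours, where each stayed below 7 log2 units.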
